A study of Homo sapiens with 6 samples.

Results

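The cellular response to low oxygen was examined through 40 genes chosen by name. They comprise the subunits of the hypoxia-inducible factors (HIF), the enzymes that sense oxygen and mark HIF for degradation, and HIF target genes outside glycolysis. Each gene was represented by 1 probe set annotated to that gene alone, the brightest over all arrays, and 39 of the 40 had such a probe set, out of 19775 genes measured. CA9, the carbonic anhydrase, had none and was not analysed here. The RNA came from SW480, an established cell line of a human colorectal adenocarcinoma, and was measured on Affymetrix HG-U133 Plus 2.0 arrays. Of the 6 arrays, 3 came from cells transfected and labelled as overexpressing CPEB3, and 3 from cells labelled as negative control (NC). CPEB3 is a protein that binds RNA at cytoplasmic polyadenylation elements. All were grown in Dulbecco's modified Eagle's medium with fetal calf serum and antibiotics. The labels name no oxygen level, no vector, no clone and no culture day. They call the replicates biological without saying that they came from separate cultures, so the p-values reflect only how these samples vary, which may be technical.

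In oxygenated cells, prolyl hydroxylases of the EGLN family use molecular oxygen to hydroxylate the HIF alpha subunits, which are then bound by the von Hippel-Lindau protein VHL and degraded by the proteasome. When oxygen is short the alpha subunits persist, pair with ARNT and bind DNA at hypoxia response elements, short sequences with an RCGTG core (R being A or G). The genes switched on there serve mitochondrial turnover, blood vessel growth, acid-base balance, collagen processing and chromatin demethylation, and some, such as EGLN3, feed back on the pathway. HIF activity is set largely by the stability of the alpha proteins, which arrays do not measure.

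The labels were checked first on CPEB3 mRNA. Its brightest probe set was 5.37 against 5.32 on the log2 scale in the CPEB3-labelled arrays and in the NC-labelled arrays, a difference of 0.049 that did not pass the threshold, while 3 dimmer probe sets were lower past the threshold, at -0.25, -0.35 and -1.44. Since overexpression was labelled and not seen here, groups are named by their labels, and each direction rests on these labels. The 12 epithelial markers had mean levels of 4.52 (VIL1) to 11.62 (KRT18) in the CPEB3-labelled arrays and 4.26 (KRT20) to 11.36 (KRT18) in the NC-labelled arrays, all above the median probe set of 3.90. Of these, ELF3 (-1.03) and CLDN4 (-0.34) fell, KRT20 (0.87) and KRT18 (0.26) rose, and the defining marker EPCAM differed by 0.042 without passing. The leukocyte marker PTPRC, the dimmest of its list, was at 1.62 in the CPEB3-labelled arrays and 1.48 in the NC-labelled arrays, below that median. CD79A (5.30 and 5.15), CD3E (4.92 and 4.74), ITGAM (4.64 and 4.32) and CD3D (4.53 and 4.46) lay above it, and the remaining leukocyte genes below. Fibroblast and endothelial genes also lay on both sides, such as COL1A1 (6.48 and 6.32) and CDH5 (1.54 and 1.42). Per array, mean log2 levels were 3.56 to 3.69 on the CPEB3-labelled and 3.48 to 3.50 on the NC-labelled arrays for 10 leukocyte genes. In the same order of groups they were 3.73 to 3.75 and 3.60 to 3.69 for 8 fibroblast genes, and 3.48 to 3.53 and 3.50 to 3.51 for 8 endothelial genes. ITGAM and DCN were higher and ESAM lower past the threshold among these 26 leukocyte, fibroblast and endothelial genes. No defining marker can be read as 0 on an array, and the part of these shifts in the results was not tested.

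Most of the oxygen-response genes were lower in the CPEB3-labelled arrays. Of the 39 measured genes, 29 fell and 1 rose (limma, Benjamini-Hochberg adjusted over all 19775 genes, threshold 0.05), where 12.5% of all genes fell and 10.9% rose. The falls ran from 1.24-fold to 3.52-fold, and 10 genes fell at least 2-fold, against 0.865% of all genes, while 0 rose that far, against 0.101%. The median log2 difference was -0.64, beside 0.019 over all genes. NDRG1, a stress-responsive cytoplasmic protein, fell most, followed by BHLHE41, ANGPTL4, ANKRD37 and EGLN3. The single rise was EPAS1, the HIF-2 alpha subunit. The groups did not overlap in 32 genes, against 39.1% of all genes, with the CPEB3-labelled arrays below in 30 of them and above in HIF1A and EPAS1. All 29 genes that fell were below every NC-labelled array on each of the 3 CPEB3-labelled arrays. This largely restates their calls, which were made on the same arrays, and is no further evidence. Within a group the genes' SD had a median of 0.070 and reached at most 0.25. The genes were chosen with earlier results of these data known, so these counts describe them and are no independent evidence of a direction.

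**Figure D1:**
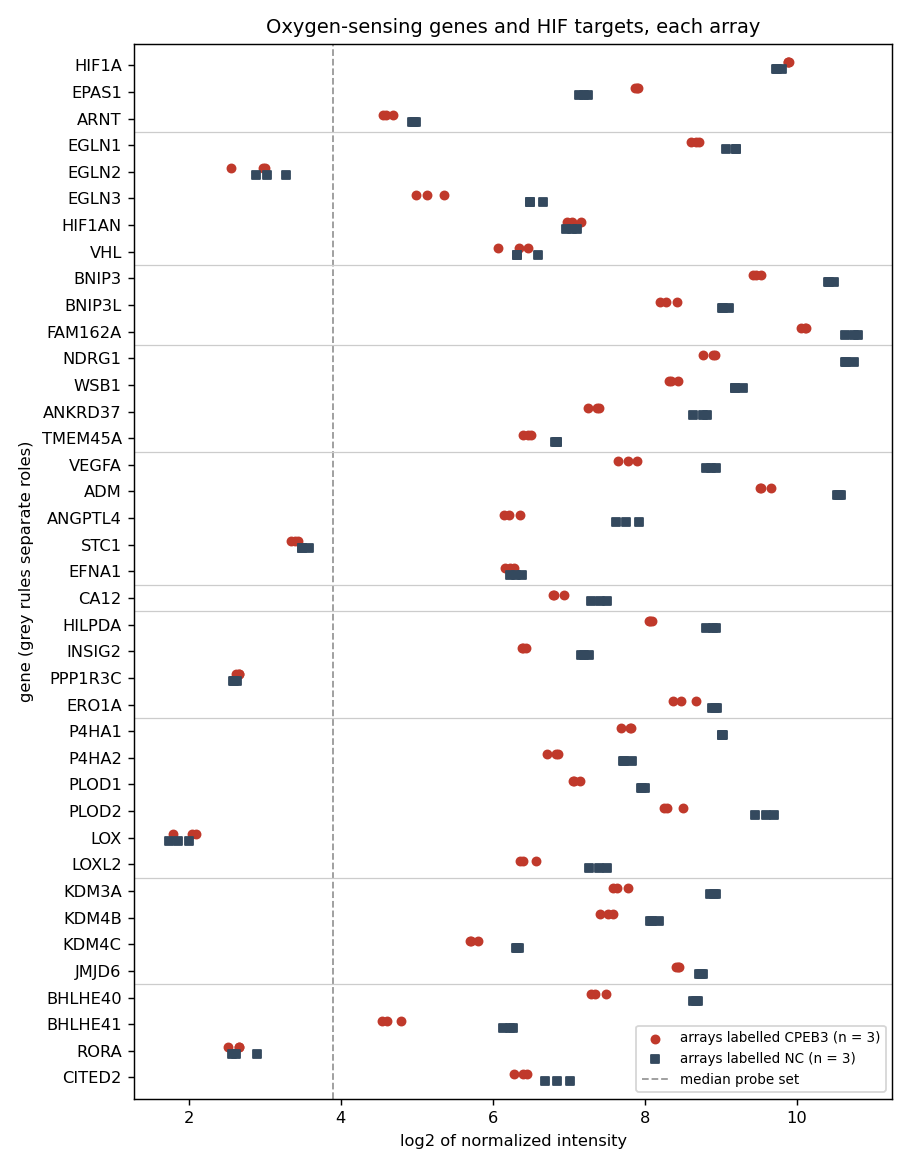
Log2 normalized intensity (horizontal axis) of 39 oxygen-sensing genes and HIF targets (vertical axis, grouped by role), with 1 point per array for 3 CPEB3-labelled arrays (red circles) and 3 labelled NC (dark squares); the dashed line is the median probe set. In 30 genes all red points lie left of all dark points, and the 5 genes left of the dashed line in both groups have group differences of -0.22 to 0.11 on the log2 scale.

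The 5 genes that were dimmer than the median probe set in both groups (EGLN2, STC1, PPP1R3C, LOX and RORA) differed by -0.22 to 0.11, and none passed the threshold. Of the 34 brighter genes, 29 fell, 1 rose and 4 did not pass. When all dim genes were left out of the fit, the 34 gave the same 29 falls and 1 rise. Of the 12932 genes kept there, 21.9% fell and 18.8% rose. The deposited values carry no detection calls, so whether the 5 dim genes lie above background was not tested. Folds of dim genes can be understated on these arrays.

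Promoters are shown for the 4 genes with the largest change among those whose sequence was matched and held the RCGTG core, to show the element that HIF reads. The window runs from 250 bases before to 50 bases after the annotated start (RefSeq, GRCh38.p14), 5′ to 3′ on the gene's strand, and capitals mark ACGTG or GCGTG on either strand (CACGT and CACGC when on the other one).
BHLHE41 (chr12:26124988-26125287, minus strand): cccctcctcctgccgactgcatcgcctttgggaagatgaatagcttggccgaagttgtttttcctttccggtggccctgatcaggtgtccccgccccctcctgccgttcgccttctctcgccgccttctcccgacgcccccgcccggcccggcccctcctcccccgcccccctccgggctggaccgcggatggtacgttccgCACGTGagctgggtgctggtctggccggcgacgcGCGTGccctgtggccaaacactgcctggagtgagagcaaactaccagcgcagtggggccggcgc
ANGPTL4 (chr19:8363905-8364204, plus strand): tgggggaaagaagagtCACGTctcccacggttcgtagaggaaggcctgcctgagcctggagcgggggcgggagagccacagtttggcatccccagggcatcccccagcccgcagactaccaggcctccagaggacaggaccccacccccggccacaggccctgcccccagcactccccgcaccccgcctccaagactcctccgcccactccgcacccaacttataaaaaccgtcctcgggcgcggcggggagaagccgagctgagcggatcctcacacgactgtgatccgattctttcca
ANKRD37 (chr4:185396591-185396890, plus strand): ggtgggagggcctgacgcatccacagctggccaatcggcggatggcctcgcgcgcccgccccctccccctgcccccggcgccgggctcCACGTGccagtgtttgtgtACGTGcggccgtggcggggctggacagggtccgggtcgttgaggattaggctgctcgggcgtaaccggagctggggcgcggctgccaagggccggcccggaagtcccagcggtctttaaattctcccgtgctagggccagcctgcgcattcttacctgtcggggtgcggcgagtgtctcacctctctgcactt
BHLHE40 (chr3:4979187-4979486, plus strand): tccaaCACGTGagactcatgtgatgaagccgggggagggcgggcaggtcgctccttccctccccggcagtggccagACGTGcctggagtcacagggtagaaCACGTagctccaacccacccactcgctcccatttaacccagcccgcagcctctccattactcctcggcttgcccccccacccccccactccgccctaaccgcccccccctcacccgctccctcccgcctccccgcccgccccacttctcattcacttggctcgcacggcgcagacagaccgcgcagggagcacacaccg
In BHLHE41, ANKRD37 and BHLHE40 a CACGTG run holds the ACGTG core on both strands at once and is also the E-box that many basic helix-loop-helix factors read. BHLHE40 had 4 matches in this window, with the CACGTG run counted on each strand, ANKRD37 and BHLHE41 had 3 each and ANGPTL4 had 1. RefSeq windows were matched for 32 of the 40 genes, 40 windows in all. ACGTG on either strand stood in 22 of these 40 windows (55%), against 21.4% of all 35116 windows and 23.3% of the 21490 windows of genes on the array. GCGTG stood in 21 (52.5%), against 36.5% and 43.2%, and at least 1 of them in 32 (80%), against 48.4% and 55%. Counted by gene, ACGTG stood in 15 of 23 genes that fell and had a window (65.2%). Among measured genes that did not fall it stood in 3 of 8 (37.5%), against 28.8% of genes on the array. GCGTG stood in 13 of those 23 (56.5%) and 4 of those 8 (50%), against 50.6%. At least 1 of the motifs stood in 19 (82.6%) and 6 (75%), against 62.3%. ARNT, EGLN3, TMEM45A and P4HA2 fell with no match in this window. NDRG1, BNIP3L, VEGFA, HILPDA, LOXL2 and JMJD6 also fell and had no matched window. A match describes letters in this window and not binding. The list was drawn up from known HIF targets together with HIF subunits and oxygen-sensing genes. The 8 genes that did not fall include HIF1A, EPAS1, EGLN2 and HIF1AN, and the 23 that fell include ARNT, EGLN1 and EGLN3. These shares therefore do not separate falling from being a target.

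The HIF subunits went in different directions. EPAS1 read 7.87, 7.91 and 7.90 in the CPEB3-labelled arrays, against 7.14, 7.26 and 7.20 in the NC-labelled ones, a log2 difference of 0.70 (SE 0.059), or 1.62-fold higher (limma adjusted p = 5.01e-05). The groups did not overlap, but only 1 of its 3 probe sets rose, and the other two were dim (3.16 against 3.09 and 2.37 against 2.38). HIF1A, the broadly expressed alpha subunit, read 9.89, 9.88 and 9.88 in the CPEB3-labelled arrays, against 9.80, 9.74 and 9.72 in the NC-labelled ones. Its difference of 0.13 (limma adjusted p = 0.124) had an unadjusted 95% interval of 0.0063 to 0.26, and its groups did not overlap, although it did not pass the threshold. ARNT, the shared beta subunit, read 4.55, 4.60 and 4.69 in the CPEB3-labelled arrays, against 4.99, 4.96 and 4.94 in the NC-labelled ones, a log2 difference of -0.35 (SE 0.06), or 1.27-fold lower (limma adjusted p = 0.00314). Just 1 of its 7 probe sets passed, the others lying between -0.27 and 0.21, and averaging all 7 gave -0.078, which did not pass (limma adjusted p = 0.292). The calls of HIF1A and ARNT depended on the settings. Centring on spike-ins took HIF1A past the threshold (0.31) and ARNT out of it (-0.17), and an intensity trend in the variances also called HIF1A higher (limma adjusted p = 0.0168), whereas EPAS1 was called higher under every alternative run, by 0.26 when its 3 probe sets were averaged (limma adjusted p = 0.00502).

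Of the 5 genes that sense oxygen and mark HIF, 2 fell, EGLN1 and EGLN3, where 12.5% of all genes fell. Both are known to be induced by HIF themselves, and whether that bears on their falls was not tested. EGLN3, the prolyl hydroxylase PHD3, read 5.35, 5.14 and 4.99 in the CPEB3-labelled arrays, against 6.49, 6.48 and 6.66 in the NC-labelled ones, a log2 difference of -1.38 (SE 0.095), or 2.61-fold lower (limma adjusted p = 1.50e-05), and both of its probe sets fell. EGLN1, or PHD2, the main prolyl hydroxylase in oxygenated cells, read 8.68, 8.60 and 8.71 in the CPEB3-labelled arrays, against 9.19, 9.19 and 9.07 in the NC-labelled ones, a log2 difference of -0.49 (SE 0.063), or 1.41-fold lower (limma adjusted p = 6.01e-04). Of its 4 probe sets, 3 fell, and the remaining one was dim (2.10 against 2.28). EGLN2, or PHD1, was dim, at 2.84 ± 0.25 in the CPEB3-labelled arrays and 3.06 ± 0.20 in the NC-labelled ones (SD over 3 arrays each), and its groups overlapped (difference -0.22 (limma adjusted p = 0.278)). VHL, the ubiquitin ligase subunit that binds hydroxylated HIF, read 6.35, 6.07 and 6.46 in the CPEB3-labelled arrays, against 6.32, 6.32 and 6.59 in the NC-labelled ones. Its groups overlapped, with a difference of -0.12 (limma adjusted p = 0.494) and a 95% interval of -0.37 to 0.13. HIF1AN, the asparaginyl hydroxylase FIH that blocks coactivator binding, differed by 0.02 (limma adjusted p = 0.872) with a 95% interval of -0.14 to 0.18. Its 3 probe sets disagreed, since a nearly as bright one read 7.03 against 6.42 in the CPEB3-labelled arrays and in the NC-labelled arrays, a rise of 0.61 (limma, all probe sets, adjusted p = 9.36e-04).

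Targets that act at mitochondria all fell, against 12.5% of all genes. BNIP3 and BNIP3L are outer membrane receptors that mark mitochondria for autophagy. BNIP3 read 9.46, 9.42 and 9.53 in the CPEB3-labelled arrays, against 10.48, 10.42 and 10.41 in the NC-labelled ones, a log2 difference of -0.97 (SE 0.059), or 1.95-fold lower (limma adjusted p = 7.50e-06). BNIP3L read 8.28, 8.20 and 8.42 in the CPEB3-labelled arrays, against 9.10, 9.01 and 9.03 in the NC-labelled ones, a log2 difference of -0.75 (SE 0.072), or 1.68-fold lower (limma adjusted p = 1.17e-04). Each has 2 probe sets, and all 4 fell. FAM162A, a mitochondrial protein linked to hypoxic cell death, was the brightest of all these genes in both groups and read 10.10, 10.06 and 10.11 in the CPEB3-labelled arrays, against 10.63, 10.80 and 10.75 in the NC-labelled ones, a log2 difference of -0.64 (SE 0.064), or 1.55-fold lower (limma adjusted p = 1.49e-04). Of its 5 probe sets 4 fell, by a narrow span of -0.57 to -0.69, and the remaining one was dim (3.32 against 3.26).

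The stress and ubiquitin-ligase targets, 4 genes, all fell, against 12.5% of all genes, and included the largest change. NDRG1, which is induced by hypoxia and by other stresses, read 8.90, 8.76 and 8.93 in the CPEB3-labelled arrays, against 10.63, 10.64 and 10.76 in the NC-labelled ones, a log2 difference of -1.81 (SE 0.068), or 3.52-fold lower (limma adjusted p = 2.68e-07). Its difference lay at the 0.319th percentile of all genes, and it has 1 probe set. ANKRD37, an ankyrin-repeat protein often used as a HIF-1 marker, read 7.37, 7.25 and 7.40 in the CPEB3-labelled arrays, against 8.63, 8.82 and 8.77 in the NC-labelled ones, a log2 difference of -1.40 (SE 0.072), or 2.64-fold lower (limma adjusted p = 2.39e-06). Its second probe set was dim and did not pass (-0.14). WSB1, a SOCS-box protein of ubiquitin ligases, read 8.31, 8.35 and 8.44 in the CPEB3-labelled arrays, against 9.29, 9.18 and 9.19 in the NC-labelled ones, a log2 difference of -0.86 (SE 0.063), or 1.81-fold lower (limma adjusted p = 2.14e-05). For WSB1, 4 of 5 probe sets fell, all of them of the kind that can match several transcripts. The remaining one differed by -0.29 and did not pass, so that without such probe sets the call was lost (limma adjusted p = 0.108). TMEM45A, a transmembrane protein, fell least, by 0.38 on the log2 scale (limma adjusted p = 0.00135), and its call was lost with spike-in centring (-0.20).

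Among secreted and membrane-anchored targets, 3 of 5 fell, against 12.5% of all genes. VEGFA, the vascular endothelial growth factor, read 7.64, 7.78 and 7.89 in the CPEB3-labelled arrays, against 8.94, 8.81 and 8.87 in the NC-labelled ones, a log2 difference of -1.10 (SE 0.076), or 2.15-fold lower (limma adjusted p = 1.55e-05). All 4 of its probe sets were lower, by -0.28 to -1.10, and 3 passed the threshold. ANGPTL4, an inhibitor of lipoprotein lipase that also acts on vessels, read 6.14, 6.22 and 6.35 in the CPEB3-labelled arrays, against 7.62, 7.75 and 7.93 in the NC-labelled ones, a log2 difference of -1.53 (SE 0.089), or 2.88-fold lower (limma adjusted p = 5.40e-06). Its second probe set fell as well (-1.27). ADM, the vasodilator peptide adrenomedullin, read 9.51, 9.53 and 9.66 in the CPEB3-labelled arrays, against 10.53, 10.58 and 10.55 in the NC-labelled ones, a log2 difference of -0.99 (SE 0.061), or 1.98-fold lower (limma adjusted p = 7.90e-06). STC1, the hormone stanniocalcin, was dim, at 3.39 ± 0.051 in the CPEB3-labelled arrays and 3.52 ± 0.054 in the NC-labelled ones (SD over 3 arrays each); its groups did not overlap but the difference of -0.13 (limma adjusted p = 0.156) did not pass. EFNA1, a membrane-anchored ephrin, differed by -0.084 (limma adjusted p = 0.409), with overlapping groups and a 95% interval of -0.23 to 0.064. Of its relatives, EFNA4 fell by 0.49 and EFNA2 by 0.47 on the log2 scale, while EFNA3 (-0.0013) and EFNA5 (0.029) did not pass.

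CA12, a membrane carbonic anhydrase, read 6.80, 6.80 and 6.94 in the CPEB3-labelled arrays, against 7.29, 7.51 and 7.41 in the NC-labelled ones. That was a log2 difference of -0.56 (SE 0.074), or 1.47-fold lower (limma adjusted p = 7.25e-04). The fall was seen at 4 of its 7 probe sets, at -0.51 to -0.56, and the other 3 were dimmer than these and did not pass (0.057 to 0.15).

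Targets in lipid, glycogen and protein-folding metabolism fell in 3 of 4 cases, against 12.5% of all genes. HILPDA, a lipid droplet protein that inhibits adipose triglyceride lipase, read 8.05, 8.07 and 8.09 in the CPEB3-labelled arrays, against 8.81, 8.89 and 8.94 in the NC-labelled ones, a log2 difference of -0.81 (SE 0.059), or 1.75-fold lower (limma adjusted p = 2.16e-05). The second HILPDA probe set gave -0.80. INSIG2, which holds the sterol sensor complex in the endoplasmic reticulum, read 6.44, 6.38 and 6.40 in the CPEB3-labelled arrays, against 7.16, 7.20 and 7.27 in the NC-labelled ones, a log2 difference of -0.81 (SE 0.058), or 1.75-fold lower (limma adjusted p = 1.98e-05). ERO1A, the oxidase that recharges protein disulfide isomerase, fell less, with 8.67, 8.37 and 8.48 in the CPEB3-labelled arrays, against 8.89, 8.93 and 8.96 in the NC-labelled ones, a log2 difference of -0.42 (SE 0.079), or 1.34-fold lower (limma adjusted p = 0.00499). All 3 ERO1A probe sets fell. PPP1R3C, a subunit that targets protein phosphatase to glycogen, was dim at 2.65 ± 0.021 in the CPEB3-labelled arrays and 2.61 ± 0.029 in the NC-labelled ones (SD over 3 arrays each), a difference of 0.046 (limma adjusted p = 0.602). PPP1R3B, its relative, fell by 0.71 on the log2 scale (limma adjusted p = 3.96e-04). Another relative, PPP1R3D, differed by 0.19 and did not pass (limma adjusted p = 0.219).

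**Figure D2:**
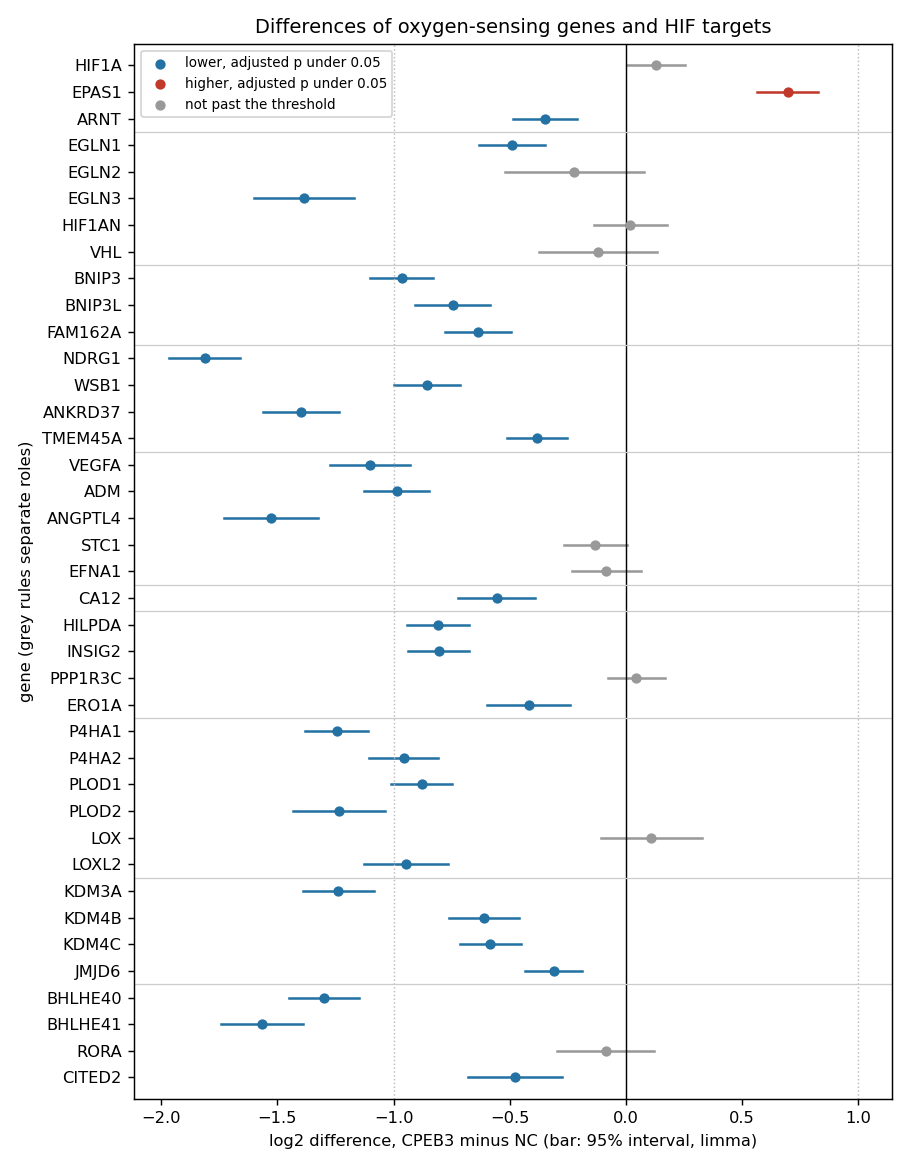
Log2 difference, CPEB3-labelled arrays minus NC-labelled arrays (horizontal axis), with its unadjusted 95% interval from limma (bars) for 39 genes grouped by role; blue marks the 29 that fell, red the 1 that rose and grey the 9 that did not pass an adjusted p of 0.05. NDRG1 lies farthest left at -1.81 and EPAS1 is the single gene right of 0 past the threshold.

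Collagen-modifying enzymes fell in 5 of 6 cases, against 12.5% of all genes, by 1.84-fold to 2.37-fold. P4HA1 and P4HA2 are the catalytic subunits of collagen prolyl hydroxylase. P4HA1 read 7.82, 7.69 and 7.81 in the CPEB3-labelled arrays, against 9.02, 9.01 and 9.03 in the NC-labelled ones, a log2 difference of -1.24 (SE 0.06), or 2.37-fold lower (limma adjusted p = 1.56e-06). P4HA2 read 6.71, 6.84 and 6.86 in the CPEB3-labelled arrays, against 7.71, 7.73 and 7.84 in the NC-labelled ones, a log2 difference of -0.96 (SE 0.066), or 1.94-fold lower (limma adjusted p = 1.54e-05). The P4HA1 fall rests on 1 of 2 probe sets, the other being among the dimmest (1.02 against 1.01); with probe sets that can match several transcripts left out, P4HA1 was read by that dim one and the difference turned to 0.017. PLOD1 and PLOD2 hydroxylate collagen lysines, and PLOD2 sets the stiff cross-links of fibrotic matrix. PLOD2 read 8.25, 8.29 and 8.50 in the CPEB3-labelled arrays, against 9.70, 9.59 and 9.45 in the NC-labelled ones, a log2 difference of -1.24 (SE 0.088), or 2.35-fold lower (limma adjusted p = 1.80e-05). PLOD1 was at 7.09 ± 0.054 in the CPEB3-labelled arrays and 7.97 ± 0.03 in the NC-labelled ones (SD over 3 arrays each), a log2 difference of -0.88 (SE 0.058), or 1.84-fold lower (limma adjusted p = 1.19e-05), and its groups did not overlap. LOXL2, which oxidises lysines for cross-linking, read 6.56, 6.36 and 6.40 in the CPEB3-labelled arrays, against 7.27, 7.40 and 7.50 in the NC-labelled ones, a log2 difference of -0.95 (SE 0.08), or 1.93-fold lower (limma adjusted p = 5.29e-05). Just 1 of the 4 LOXL2 probe sets passed, and the other 3 were dim. LOX, the founding lysyl oxidase, was the dimmest of these genes, at 1.98 ± 0.16 in the CPEB3-labelled arrays and 1.87 ± 0.13 in the NC-labelled ones (SD over 3 arrays each), with overlapping groups (difference 0.11 (limma adjusted p = 0.463)). Relatives in the same families did not pass the threshold. P4HB, the partner subunit of P4HA1 and P4HA2, differed by -0.12 (limma adjusted p = 0.133), PLOD3 by -0.071 (limma adjusted p = 0.611) and P4HA3 by -0.069 (limma adjusted p = 0.480). LOXL1, LOXL3 and LOXL4 lay between -0.18 and 0.21, none past the threshold.

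The JmjC oxygenases, which like the EGLN enzymes use oxygen and 2-oxoglutarate, fell in 4 of 4 cases, against 12.5% of all genes. KDM3A, a histone lysine demethylase, read 7.77, 7.58 and 7.63 in the CPEB3-labelled arrays, against 8.91, 8.93 and 8.85 in the NC-labelled ones, a log2 difference of -1.24 (SE 0.067), or 2.36-fold lower (limma adjusted p = 3.47e-06). KDM4B read 7.51, 7.41 and 7.59 in the CPEB3-labelled arrays, against 8.07, 8.09 and 8.19 in the NC-labelled ones, a log2 difference of -0.61 (SE 0.067), or 1.53-fold lower (limma adjusted p = 2.53e-04). KDM4C read 5.70, 5.81 and 5.72 in the CPEB3-labelled arrays, against 6.31, 6.32 and 6.35 in the NC-labelled ones, a log2 difference of -0.58 (SE 0.058), or 1.50-fold lower (limma adjusted p = 1.51e-04). In none of these did the groups overlap, as in 39.1% of all genes, which largely restates their calls. KDM3A fell at 1 of 2 probe sets, KDM4B at 3 of 8 and KDM4C at 2 of 4, with the rest not past the threshold. JMJD6, a lysyl hydroxylase of splicing factors, fell least, at 8.43 ± 0.023 in the CPEB3-labelled arrays and 8.74 ± 0.026 in the NC-labelled ones (SD over 3 arrays each), a log2 difference of -0.31 (SE 0.055), or 1.24-fold lower (limma adjusted p = 0.00340). With the mean of its 4 probe sets JMJD6 differed by -0.080 and lost the call (limma adjusted p = 0.319), as it did with spike-in centring (-0.13). Among relatives, KDM3B and KDM4A did not pass, with KDM3B at -0.043 (limma adjusted p = 0.662) and KDM4A at -0.17 (limma adjusted p = 0.330), while JMJD1C fell by 0.46 on the log2 scale (limma adjusted p = 0.00145).

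Transcriptional regulators fell in 3 of 4 cases, against 12.5% of all genes. BHLHE40 and BHLHE41, also called DEC1 and DEC2, are repressors that bind E-boxes and are induced by hypoxia. BHLHE41 read 4.60, 4.54 and 4.80 in the CPEB3-labelled arrays, against 6.14, 6.23 and 6.27 in the NC-labelled ones, a log2 difference of -1.57 (SE 0.078), or 2.96-fold lower (limma adjusted p = 2.02e-06). BHLHE40 read 7.34, 7.29 and 7.48 in the CPEB3-labelled arrays, against 8.68, 8.63 and 8.70 in the NC-labelled ones, a log2 difference of -1.30 (SE 0.067), or 2.46-fold lower (limma adjusted p = 2.39e-06). Both BHLHE40 probe sets and 2 of the 4 of BHLHE41 fell. Once _x_at and _s_at probe sets, which can match several transcripts, were left out BHLHE41 was read by a dim one (2.05 against 2.05) and differed by 0.0046, so its call rests on the probe sets left out there. CITED2, which competes with HIF for the coactivators EP300 and CREBBP, read 6.39, 6.27 and 6.45 in the CPEB3-labelled arrays, against 7.01, 6.69 and 6.85 in the NC-labelled ones, a log2 difference of -0.48 (SE 0.089), or 1.39-fold lower (limma adjusted p = 0.00460). RORA, a nuclear receptor, was dim, differed by -0.086 (limma adjusted p = 0.559) and had 8 probe sets, none of them past the threshold.

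**Figure D3:**
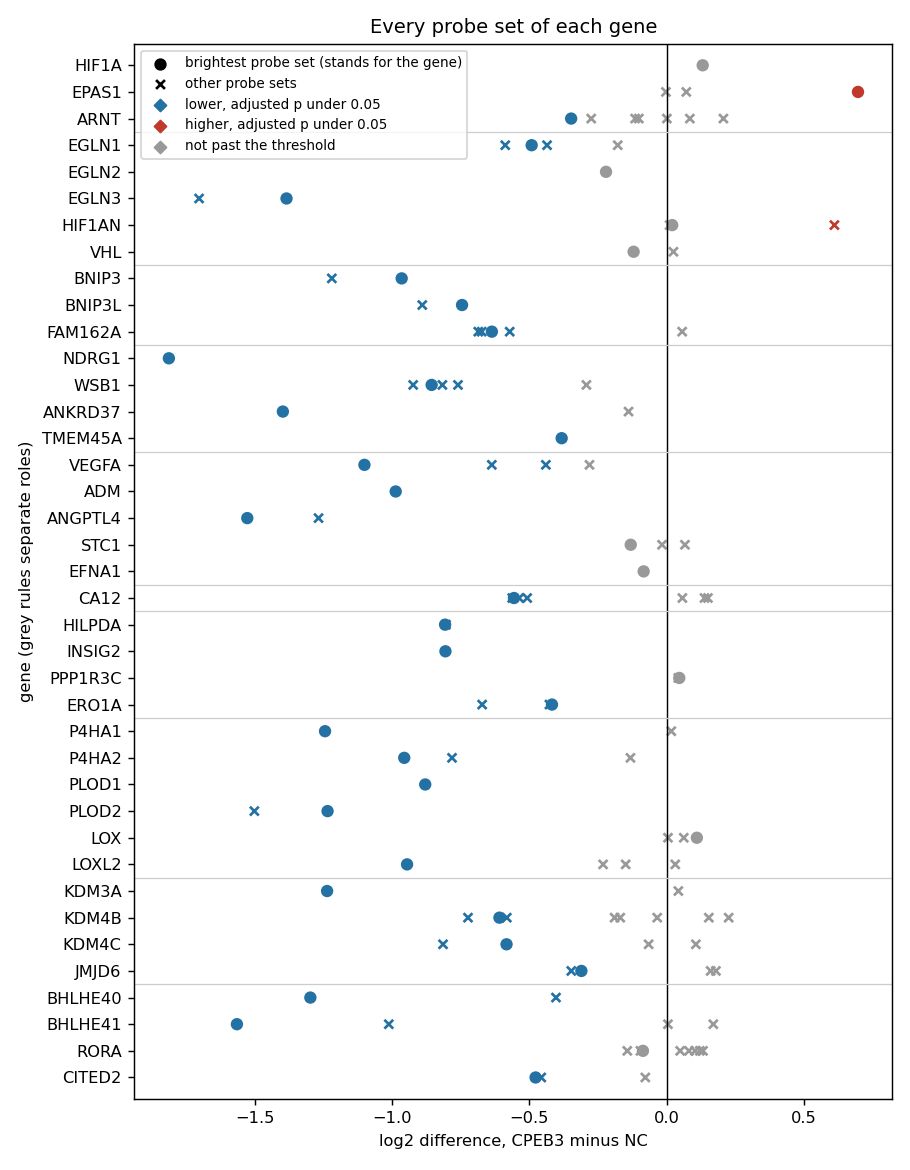
Log2 difference, CPEB3-labelled arrays minus NC-labelled arrays (horizontal axis), for each of the 117 probe sets of 39 genes (vertical axis); circles are the brightest probe set of a gene and crosses the others, in blue where lower, red where higher and grey where not past an adjusted p of 0.05. Blue symbols (58) and grey ones (57) make up most of the picture, and the 2 red ones belong to EPAS1 and HIF1AN.

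Taken probe set by probe set, with adjustment over all 54613 probe sets, 58 of the 117 probe sets of these genes fell and 2 rose, against 7.86% and 6.59% of all probe sets. No gene had one probe set lower and another higher past the threshold. The rises were 1 probe set of EPAS1 and 1 of HIF1AN.

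Further genes of the pathway were counted from lists that were likewise drawn up with earlier results known. Of 19 measured glycolytic HIF targets, 16 fell (84.2%, against 12.5% of all genes) and 0 rose, with a median difference of -0.47. With spike-in centring 10 of the 19 fell and 0 rose, where 5.25% of all genes fell and 39.3% rose. By limma, 0 of the 19 differences were positive, so 0 rose at an unadjusted p under 0.05 as well. The largest falls were SLC2A3, a glucose transporter (-2.90), PFKFB4, a regulator of phosphofructokinase (-1.79), PDK1, which diverts pyruvate from mitochondria (-1.42), and the enolase ENO2 (-1.07). Of 21 further non-glycolytic targets, 12 fell (57.1%, against 12.5% of all genes) and 1 rose, with a median of -0.24. Centred on spike-ins, 9 of them fell and 4 rose, beside the same 5.25% and 39.3% of all genes. The largest falls were CXCR4, a chemokine receptor (-2.52), IGFBP3, an insulin-like growth factor binding protein (-1.97), DDIT4, an inhibitor of mTORC1 (-1.94), and heme oxygenase HMOX1 (-1.06). PGM1, which links glycogen and glucose phosphates, was the 1 that rose (0.39). Each of these 9 genes had non-overlapping groups, against 39.1% of all genes, and the largest of their limma adjusted p-values was 0.00137. They were named for their called differences, so these values describe the choice and add no evidence.

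Of 16 genes in other parts of the HIF machinery, 5 fell and 2 rose, with a median difference of -0.043. These shares were 31.2% and 12.5%, against 12.5% and 10.9% of all genes. With spike-in centring 3 fell and 5 rose, where 5.25% of all genes fell and 39.3% rose. The coactivators EP300 (-0.51) and CREBBP (-0.42) fell, as did SENP1, a SUMO protease (-0.44), and SIAH1 and SIAH2, ubiquitin ligases that act on EGLN proteins (-0.37 and -0.31). OS9, a lectin of endoplasmic reticulum quality control that has been reported to bind HIF1A and EGLN proteins, rose (0.37), and so did ELOB, the elongin subunit of the VHL complex (0.19, limma adjusted p = 0.0493). CUL2 (0.088), ELOC (0.091) and RBX1 (-0.046), the remaining subunits of that complex, did not pass. Of 29 measured family relatives, 5 fell and 4 rose, with a median of -0.043. Their shares of 17.2% and 13.8% were close to the 12.5% and 10.9% of all genes. With spike-in centring 4 relatives fell and 10 rose, against 5.25% and 39.3% of all genes. As deposited, WSB2 rose, with 9.43, 9.46 and 9.53 in the CPEB3-labelled arrays, against 8.68, 8.70 and 8.63 in the NC-labelled ones, a log2 difference of 0.81 (SE 0.058), or 1.75-fold higher (limma adjusted p = 2.00e-05), beside the fall of WSB1. NDRG2, NDRG3 and NDRG4 rose by 0.20, 0.24 and 0.20 on the log2 scale beside the fall of NDRG1. These lists and the oxygen-response genes were set side by side, and differences between lists were not tested.

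**Figure D4:**
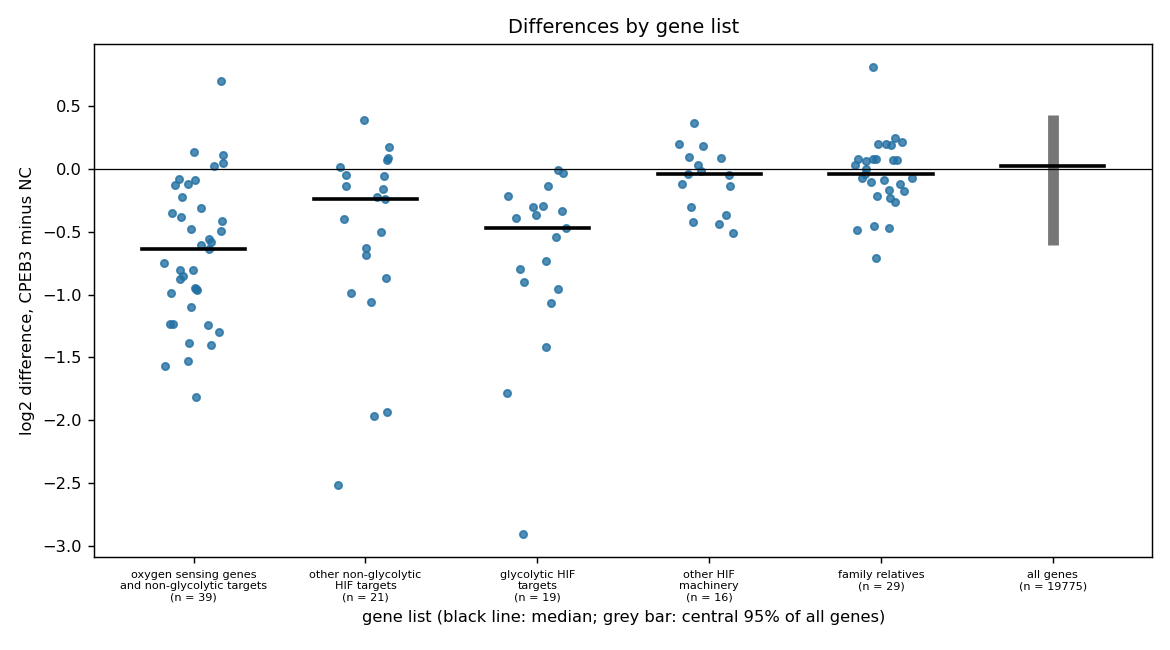
Log2 difference, CPEB3-labelled arrays minus NC-labelled arrays (vertical axis), with 1 point per gene for 5 gene lists (horizontal axis); black lines are medians and the grey bar spans the central 95% of all 19775 genes. The median of the 39 oxygen-sensing genes and non-glycolytic targets is -0.64, of the 21 further non-glycolytic targets -0.24, of the 19 glycolytic targets -0.47, and of the other HIF machinery and the family relatives -0.043 each.

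Levels over the whole array differed with the scaling. On average the hybridization spike-ins differed by -0.18 on the log2 scale between the CPEB3-labelled and the NC-labelled arrays, and centring each array on them moved the median difference of all genes by 0.18. Of the 39 genes, 26 then fell and 4 rose, where 5.25% of all genes fell and 39.3% rose, and the 39 genes' median was -0.46. Relative to the median of all genes the 39 genes' median was -0.66, a value that centring, which shifts all genes of an array alike, leaves as it is. The split of calls over all genes was 2146 higher and 2470 lower as deposited, 2828 and 2120 with median centring, and 7766 and 1038 with spike-in centring. Whether total RNA per cell differed is not measured by these arrays, nor can fewer expressing cells and less RNA per cell be told apart.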

How the data were processed

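RNA of 6 SW480 samples was hybridised to HG-U133 Plus 2.0 arrays. The authors deposited normalized intensity values, linear and 1 for each probe set of an array, made with RMA per the submitters' processing notes. How probe sets were defined, which version was used and how log2 values became linear is not given in the sources used here. RMA makes the distributions of arrays alike and compresses dim differences. Log2 of the deposited intensity was taken first. The number of arrays, which have no depth, limits the precision.

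The 54675 probe sets include 62 controls, 41091 annotated to 1 gene symbol, 1801 to several and 11721 unnamed here. For each of 19775 genes the brightest single-gene probe set over the 6 arrays was used. RefSeq (GRCh38.p14) held 19735 of them by Entrez identifier, and 0 symbols changed. Groups and replicate numbers came from the sample titles. Differences, CPEB3 minus NC, were tested by linear models in limma 3.58.1 under R 4.3.3 (lmFit, eBayes, group as the only term, two-sided, 4 residual and 5.06 prior degrees of freedom). P-values were adjusted by Benjamini-Hochberg over all genes, with calls at 0.05.

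The members and lists were chosen with earlier results of these data known. All 40 members were named whatever their result, with CPEB3, up to 4 genes past the threshold with the largest difference from each further list and, of other HIF machinery, all past the threshold. Relatives and complex subunits that did not pass, the NDRG relatives and the marker genes were named after their values were seen. Promoters followed a rule: the 4 largest called differences with a matched window holding the motif. The labels state no pairing. Deviations of same-numbered arrays correlated at 0.0065, 0.0012 and 0.093, and those of differently numbered arrays at -0.090 to 0.091. With so few arrays per group these values cannot show whether arrays were paired. Alternatives were other probe set choices, a filter on dim genes, other scalings including spike-ins, other variance models, the replicate block, a threshold of 0.01 and leaving out each array. In a simulation of 19775 genes with the arrays' own spread, 50 genes were changed at each size. The test recovered 8% of log2 changes of 0.25, 80% of 0.5, 94% of 1 and 100% of 2, with 10 false calls among 151. The data had 4616 calls, so the adjusted threshold was stricter in the simulation, and its recoveries do not carry over directly. Figures were drawn with matplotlib 3.10.9.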

Additional observations from a re-analysis of the deposited data

How the results depend on the processing

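The 29 falls and 1 rise were the same counts under quantile normalization once more, median centring, robust variances, array weights, the replicate block, a threshold of 0.01 and without dim genes (34 genes measured). Leaving out 1 array at a time gave 29 to 29 falls, 1 to 1 rise and a median difference of -0.68 to -0.62, against -0.64. The replicate block changed no call among these genes. It moved the calls over all genes to 2316 lower and 1946 higher, for arrays whose labels share a number and state no pairing.

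The median became -0.50 with the mean of all probe sets, -0.81 with the most variable probe set, -0.45 once probe sets of the _x_at and _s_at kinds, which can match several transcripts, were left out (shared-transcript probe sets), -0.81 without dim genes, -0.60 with median centring and -0.46 with spike-in centring. The count of rises became 2 with the mean of probe sets, the most variable probe set and an intensity trend, and 4 with spike-in centring. Falls numbered 18 of 28 genes measured without shared-transcript probe sets, where fewer genes have a probe set. Counted probe set by probe set there were 58 falls and 2 rises among 117. With spike-in centring the other HIF machinery had 3 lower and 5 higher, glycolytic targets 10 lower, further non-glycolytic targets 4 higher and family relatives 10 higher. Over all genes the calls with spike-in centring numbered 1038 lower (5.25%) and 7766 higher (39.3%). They numbered 1520 and 1083 at a threshold of 0.01, and 1714 and 1544 without shared-transcript probe sets.

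Gene by gene, 29 of the 39 had the same call, or the same lack of one, under every alternative that measured them. Of the 30 called genes, 24 kept call and direction there. However, the run without shared-transcript probe sets measured only 28 of the 39. It held no value for the called genes NDRG1, ANGPTL4, EGLN3, BHLHE40, KDM3A, PLOD2, VEGFA and LOXL2, so it could not change their calls. Among 9 genes that did not pass, 5 changed sign under an alternative (VHL, HIF1AN, STC1, EFNA1 and RORA). Among 647 values under alternatives, 8 lost a call, 6 gained one and 0 were called in the opposite direction by limma. P4HA1 (0.017, limma adjusted p = 0.910) and BHLHE41 (0.0046, limma adjusted p = 0.979) lost the call and lay slightly above 0 without shared-transcript probe sets, each then read by a dim probe set. PPP1R3C (0.23) and LOX (0.29) passed as higher with spike-in centring, and HIF1AN with the mean (0.21) or the most variable (0.61) of its probe sets. Detection above background was not analysed here, which limits what the 5 dim genes can show.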
